A study of Mus musculus with 39 samples.

Results

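The Toll-like receptor genes were followed in RNA sequencing of mouse microglia, the resident macrophages of the brain. The family was taken as the rows whose Ensembl identifier carries the symbol Tlr1, Tlr2, Tlr3, Tlr4, Tlr5, Tlr6, Tlr7, Tlr8, Tlr9 or Tlr13 in GENCODE release M21. These are 10 genes of the 55487 identifiers in the table, and no measured value was used to choose them. Male mice, 8 to 10 weeks old, were injected into the peritoneum with lipopolysaccharide (LPS, a bacterial cell wall component, at 4500 endotoxin units per gram) or saline (SAL), and striatal cells were sorted 18 hours later by a live gate for CD11b, low CD45 and P2RY12. Each library has a prenatal term, MIA (for maternal immune activation, per the series design) or CON, and an arm term, PLX or CON; what PLX stands for is not stated in the labels. A pair of terms is written prenatal term first, so that MIA:PLX is prenatal MIA with PLX. The 4 arms held 6 LPS and 3 SAL libraries (MIA:PLX), 6 and 4 (CON:PLX), 6 and 4 (MIA:CON), and 4 and 4 (CON:CON).

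Toll-like receptors are membrane proteins that bind molecules shared by many microbes and, on binding, recruit adaptor proteins through a conserved intracellular domain. One set sits at the cell surface and binds lipopeptides (TLR2 paired with TLR1 or TLR6), lipopolysaccharide (TLR4 with its partner MD-2) or flagellin (TLR5). The other set sits in endosomes and binds nucleic acids. In the brain, microglia are the cells best known for carrying these receptors.

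In GRCm38, which is the build of GENCODE M21, Tlr2 lies at chr3:83836272-83841767 on the minus strand and Tlr4 at chr4:66827584-66930284 on the plus strand. Tlr1 (chr5:64924679-64933563) and Tlr6 (chr5:64952031-64960097) are neighbours on the minus strand, 18.5 kb apart. Tlr5 lies at chr1:182954788-182976044 and Tlr9 at chr9:106222598-106226883, both on the plus strand. The X chromosome holds Tlr7 (chrX:167304929-167330558) and Tlr8 (chrX:167242696-167264329), 40.6 kb apart on the minus strand, and Tlr13 (chrX:106143204-106160493) on the plus strand. Tlr3 is at chr8:45395665-45411080 on the minus strand. Counts are per whole gene. Tlr1 and Tlr6 share 454 stretches of 50 bases, 13.6% of those in Tlr1 and 12.3% of those in Tlr6, so the division of reads between them is uncertain. None of the other 8 genes shares such a stretch with another family member. The kit keeps no strand, and Tlr3 is overlapped by the antisense gene Gm45542, which had 20.2 counts in all 39 libraries together.

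RefSeq promoter windows (GRCm38.p6) were at hand for 8 of the 10 genes, as 10 windows of 250 bases before an annotated start. The stretches shown belong to 2 genes that were higher after LPS in every arm (Tlr2 and Tlr13), and to 2 that were lower (Tlr5 in every arm, Tlr9 in both PLX arms). They are cut at the gene's start in GENCODE M21 and overlap none of its exons. Capitals mark motif matches, read on both strands.
Tlr2, chr3:83841768-83841858, minus strand: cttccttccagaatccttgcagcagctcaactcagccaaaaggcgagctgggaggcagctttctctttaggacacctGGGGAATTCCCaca
Tlr13, chrX:106143025-106143203, plus strand: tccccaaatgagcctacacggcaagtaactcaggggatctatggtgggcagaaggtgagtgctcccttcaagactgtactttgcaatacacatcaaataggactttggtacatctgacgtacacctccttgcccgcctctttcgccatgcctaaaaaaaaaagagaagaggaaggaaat
Tlr5, chr1:182954538-182954787, plus strand: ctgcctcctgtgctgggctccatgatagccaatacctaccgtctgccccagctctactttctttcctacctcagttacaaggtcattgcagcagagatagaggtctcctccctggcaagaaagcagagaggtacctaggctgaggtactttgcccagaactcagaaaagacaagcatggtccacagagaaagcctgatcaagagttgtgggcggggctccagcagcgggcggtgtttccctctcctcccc
Tlr9, chr9:106222348-106222597, plus strand: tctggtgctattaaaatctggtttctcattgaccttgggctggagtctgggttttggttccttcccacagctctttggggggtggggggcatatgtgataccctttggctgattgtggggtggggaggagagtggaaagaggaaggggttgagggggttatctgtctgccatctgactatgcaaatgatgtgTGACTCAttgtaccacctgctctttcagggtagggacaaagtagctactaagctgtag

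The capitals in Tlr2 are a pair of overlapping matches to the NF-kB consensus, which begin 173 and 172 bases before the RefSeq start, and Tlr3 has 1 such match at 211 bases. Among all 32851 promoter windows of this length, 7.25% hold the NF-kB consensus. The capitals in Tlr9 are the AP-1 site TGACTCA, 58 bases before the start, which 4.46% of all windows hold. The interferon response element core, GAAA and GAAA with 2 bases of any kind between (2.98% of all windows), was found in 1 window of Tlr6, and the PU.1 core GAGGAAGT (2.44%) in 1 window of Tlr1. The windows of Tlr5, Tlr8 and Tlr13 held none of these 4 motifs.

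The 37 libraries used had 1510020 to 5746239 counts in all, with a median of 3095162. The titles of 2 further libraries, MIA_PLX_SAL replicate 1 and CON_CON_LPS replicate 3, carry the word exclude, with no reason given, and were left out. All 8 microglial markers listed had counts in every library, and T and NK cell markers summed to at most 1.07 CPM, a gene's count relative to its library's total after TMM scaling. P2ry12, a gate gene, ran from 153 to 1774 CPM in LPS libraries and from 2062 to 2869 CPM in SAL libraries, and 6 of the 8 microglial markers fell in the LPS change averaged over the arms, where 26% of all genes fell. MIA_CON_LPS replicate 6 was closer in its counts to the excluded library MIA_PLX_SAL replicate 1 than any other of the 741 pairs of libraries. Their chi-square per degree of freedom was 1.53 over 11605 genes, against 2.42 for the next pair. The LPS change in MIA:CON is therefore given with and without it. Whether each replicate is its own animal is not stated, so p-values here cover the spread among these libraries only, and that spread may be technical. In these bulk samples, fewer cells of a type and less RNA per cell cannot be told apart.

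Levels were compared between genes as CPM per kilobase of exon. Tlr7, an endosomal receptor for single-stranded RNA, had the highest level in all 8 groups, and Tlr8 the lowest. After SAL, the order below Tlr7 was Tlr13, Tlr9, then Tlr3 and Tlr2, then Tlr4 and Tlr1, then Tlr6 and Tlr5. After LPS, Tlr2 came next to Tlr7 and Tlr13 after it in all 4 arms. In CON:CON, the LPS libraries averaged 263 ± 103 CPM per kb for Tlr7, 176 ± 87.8 for Tlr2 and 94.3 ± 8.41 for Tlr13 (SD, n = 4). The SAL libraries of that arm averaged 98.6 ± 10.1 CPM per kb for Tlr7, 28.5 ± 0.906 for Tlr2 and 58.0 ± 2.76 for Tlr13 (SD, n = 4).

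The share of each gene in the summed level of the 10 genes was taken in each library. Tlr7 made up 55.5 ± 10.1% of the sum in MIA:PLX LPS libraries (n = 6), against 37.5 ± 5.53% in SAL libraries (n = 3). In CON:CON the share of Tlr7 was 39.6 ± 12.2% after LPS and 30.8 ± 1.60% after SAL (SD, n = 4 each), and the LPS libraries ran from 26.7% to 55.8%, so the groups overlapped. Tlr2 made up 19.2 ± 5.90% after LPS and 9.23 ± 0.386% after SAL in MIA:PLX. Tlr9 made up 2.61 ± 0.754% after LPS and 12.1 ± 2.44% after SAL in that arm.

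**Figure D1:**
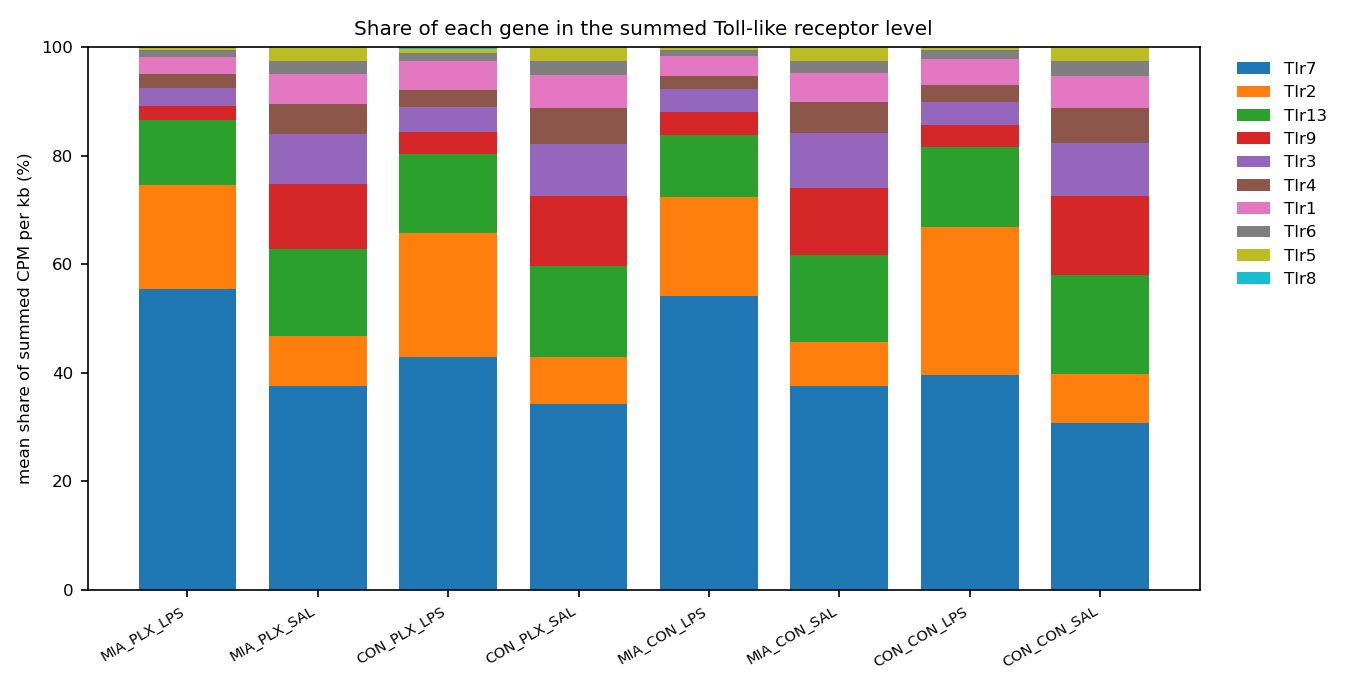
Mean share (%) of each gene in the summed level of the 10 Toll-like receptor genes, in CPM per kb of exon, for the 8 groups (3 to 6 libraries each). Tlr7 and Tlr2 take up a larger part of each LPS bar than of the SAL bar to its right, and Tlr9 a smaller part.

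Injection of LPS was compared with SAL in each arm by edgeR quasi-likelihood on the whole table of 13420 genes, with Benjamini-Hochberg adjustment and a threshold of 0.05 on the adjusted p for a call. All 10 genes passed the filter on low counts, Tlr8 only through LPS libraries, since no SAL library had more than 5 of its counts. Its calls as higher after LPS are therefore not independent of the filter. Tlr8 is among the genes counted as rising in MIA:PLX, CON:PLX and the average over the arms. Tlr2, Tlr7 and Tlr13 rose and Tlr5 fell in all 4 arms, while Tlr4 and Tlr6 were called in none. In MIA:PLX, 4 genes rose and 2 fell, where 22.3% of all genes tested were called (11.8% higher, 10.4% lower). In CON:PLX, 5 rose and 2 fell, against 31.5% of all genes called (17.5% higher, 14% lower). In MIA:CON, 3 rose and 1 fell, against 25.4% of all genes (14.5% higher, 10.9% lower). In CON:CON, 3 rose and 1 fell, against 23.6% of all genes (13.7% higher, 9.86% lower). With the change averaged over the 4 arms, 5 rose and 3 fell, against 56.4% of all genes (30.3% higher, 26% lower). The median log2 fold change of the 10 genes was 0.16 in MIA:PLX, 0.42 in CON:PLX, 0.33 in MIA:CON and 0.41 in CON:CON, beside 0.04, 0.03, 0.03 and 0.06 over all genes tested. Without MIA_CON_LPS replicate 6, 4 genes were called in MIA:CON, with log2 fold changes of 2.55 for Tlr2, 1.89 for Tlr7, 0.75 for Tlr13 and -1.76 for Tlr5. The share of all genes called in that fit is not given.

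**Figure D2:**
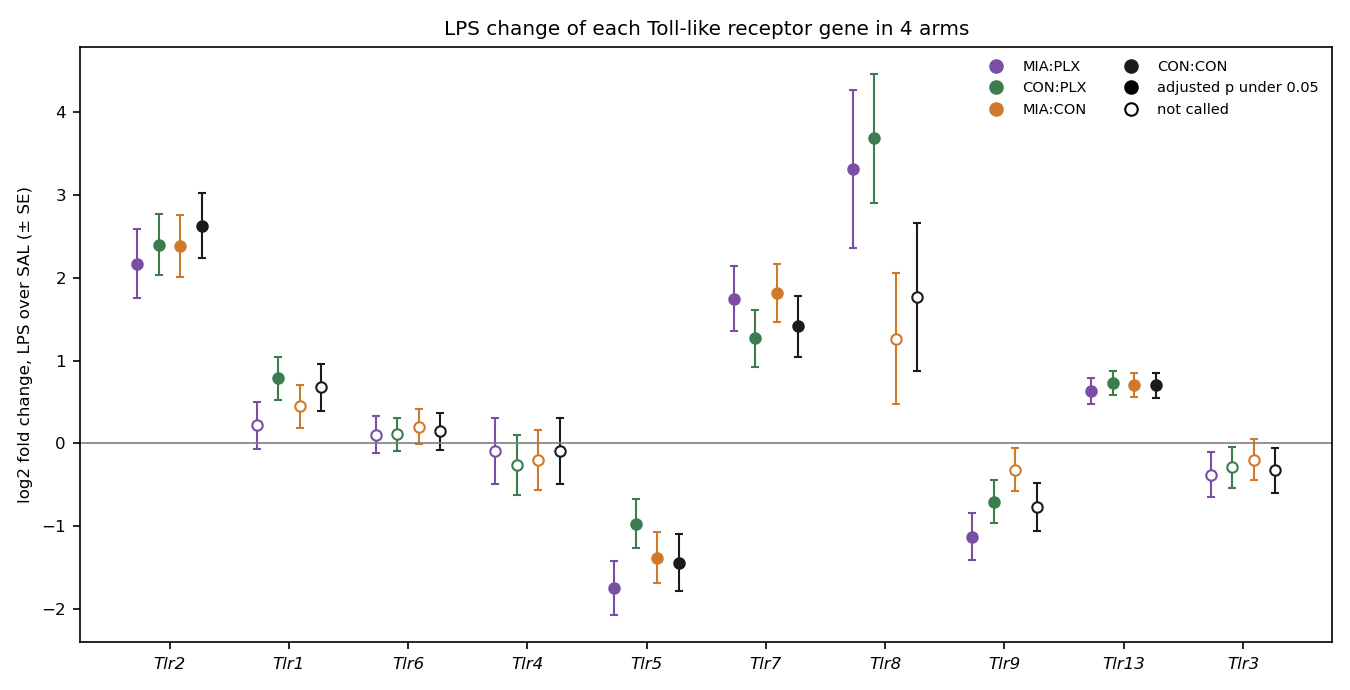
Log2 fold change of each Toll-like receptor gene, LPS over SAL, in the 4 arms (bars are ± SE, filled points have an adjusted p under 0.05 by edgeR). Tlr2, Tlr7 and Tlr13 lie above 0 and Tlr5 below 0 with filled points in all arms, and the widest bars are those of Tlr8.

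Tlr2, the lipopeptide receptor, had the largest fold change of the genes called in all 4 arms. In MIA:PLX it ran from 256 to 624 CPM with a median of 505 in LPS libraries, and was 109, 95.8 and 114 CPM in SAL libraries. In CON:PLX it ran from 283 to 1023 CPM with a median of 390 after LPS, and was 97.1, 92.3, 98.6 and 85.7 CPM after SAL. The LPS libraries were all above the SAL libraries in both arms, and LPS replicate 1 of CON:PLX stood far above the rest. In MIA:CON it ran from 197 to 1002 CPM with a median of 412 after LPS, and was 84.7, 84.8, 100 and 89.2 CPM after SAL. In CON:CON it was 808, 478, 190 and 651 CPM after LPS and 86.7, 84.3, 83.1 and 89.3 CPM after SAL. Here too no LPS library reached down to the SAL range, although LPS libraries differed severalfold among themselves and SAL libraries hardly at all. The log2 fold change was 2.17 ± 0.41 in MIA:PLX and 2.40 ± 0.37 in CON:PLX (SE; edgeR adjusted p = 0.000207 and 7.2e-06). The change was 2.39 ± 0.37 in MIA:CON and 2.63 ± 0.39 in CON:CON (edgeR adjusted p = 1.9e-05 and 8.5e-06).

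The genes of both TLR2 partners had smaller fold changes. Tlr1 encodes the partner for triacylated lipopeptides, and averaged 80.6 ± 18.2 CPM after LPS and 69.3 ± 2.65 CPM after SAL in MIA:PLX (SD, n = 6 and 3). In CON:PLX it averaged 124 ± 54.4 CPM after LPS and 71.8 ± 1.53 CPM after SAL (n = 6 and 4). The ranges of the injections overlapped in MIA:PLX, CON:PLX and MIA:CON. In CON:CON, Tlr1 was 84.0, 134, 79.5 and 99.8 CPM after LPS, all above the 58.7, 69.2, 55.4 and 65.4 CPM after SAL. It was called in CON:PLX only (log2 fold change 0.78 ± 0.26, edgeR adjusted p = 0.0189), with 0.22 ± 0.28 in MIA:PLX, 0.45 ± 0.26 in MIA:CON and 0.68 ± 0.28 in CON:CON. That call rested on LPS replicate 1, at 218 CPM: without it the change was 0.54 (edgeR adjusted p = 0.0883). Averaged over the arms Tlr1 rose by 0.53 ± 0.14 (edgeR adjusted p = 0.00111).

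Tlr6, the partner for diacylated lipopeptides, ran from 22.2 to 57.8 CPM in the LPS libraries of CON:PLX, and was 33.6, 38.1, 39.6 and 33.0 CPM in its SAL libraries. The injections overlapped in every arm, and the log2 fold change averaged over the arms was 0.14 ± 0.11 (95% interval -0.07 to 0.35, edgeR adjusted p = 0.262). The ratio of Tlr2 to the sum of Tlr1 and Tlr6, in CPM per kb, was 5.03 ± 2.25 after LPS and 1.17 ± 0.12 after SAL in MIA:PLX (SD, n = 6 and 3). In CON:PLX the ratio was 3.36 ± 0.55 after LPS and 0.995 ± 0.048 after SAL. It was 4.48 ± 2.42 after LPS and 1.08 ± 0.11 after SAL in MIA:CON, and 4.53 ± 2.52 after LPS and 1.04 ± 0.10 after SAL in CON:CON. The lowest LPS ratio, 1.79 in CON:CON, lay above the highest SAL ratio, 1.31 in MIA:PLX.

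Tlr4 encodes the receptor for the injected LPS itself. It averaged 111 ± 34.2 CPM after LPS and 119 ± 15.8 CPM after SAL in MIA:PLX (SD, n = 6 and 3), and 109 ± 37.6 CPM after LPS and 130 ± 12.5 CPM after SAL in CON:PLX (n = 6 and 4). It averaged 101 ± 66.1 CPM after LPS and 117 ± 12.3 CPM after SAL in MIA:CON (n = 6 and 4), and 109 ± 51.0 CPM after LPS and 117 ± 5.78 CPM after SAL in CON:CON (n = 4 each). The means were close while the spread was not: LPS libraries reached both below and above the SAL range in MIA:CON, MIA:PLX and CON:CON. In MIA:CON the LPS values were 36.6, 193, 161, 43.8, 54.8 and 118 CPM, against 130, 102, 124 and 112 CPM after SAL. The log2 fold change averaged over the arms was -0.16 ± 0.19, with a 95% interval of -0.53 to 0.21 (edgeR adjusted p = 0.477).

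Tlr5, the flagellin receptor, fell in all 4 arms. In MIA:PLX it ran from 8.83 to 19.0 CPM with a median of 11.8 after LPS, against 49.4, 48.1 and 38.0 CPM after SAL. In CON:PLX it ran from 10.5 to 34.1 CPM with a median of 20.5 after LPS, against 45.4, 43.4, 36.1 and 43.6 CPM after SAL. In CON:CON it was 12.01, 15.4, 15.8 and 12.3 CPM after LPS, against 34.7, 46.3, 42.7 and 27.9 CPM after SAL. No LPS library reached the SAL range of its arm, MIA:CON included, where the highest LPS value (35.5 CPM) was that of replicate 6. On the log2 scale the change was -1.75 ± 0.33 in MIA:PLX and -0.97 ± 0.30 in CON:PLX (edgeR adjusted p = 0.000164 and 0.0111). It was -1.38 ± 0.30 in MIA:CON and -1.44 ± 0.34 in CON:CON (edgeR adjusted p = 0.00110 and 0.00201). With both excluded libraries put back, the change in CON:CON was -0.94 and no longer called (edgeR adjusted p = 0.0663).

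**Figure D3:**
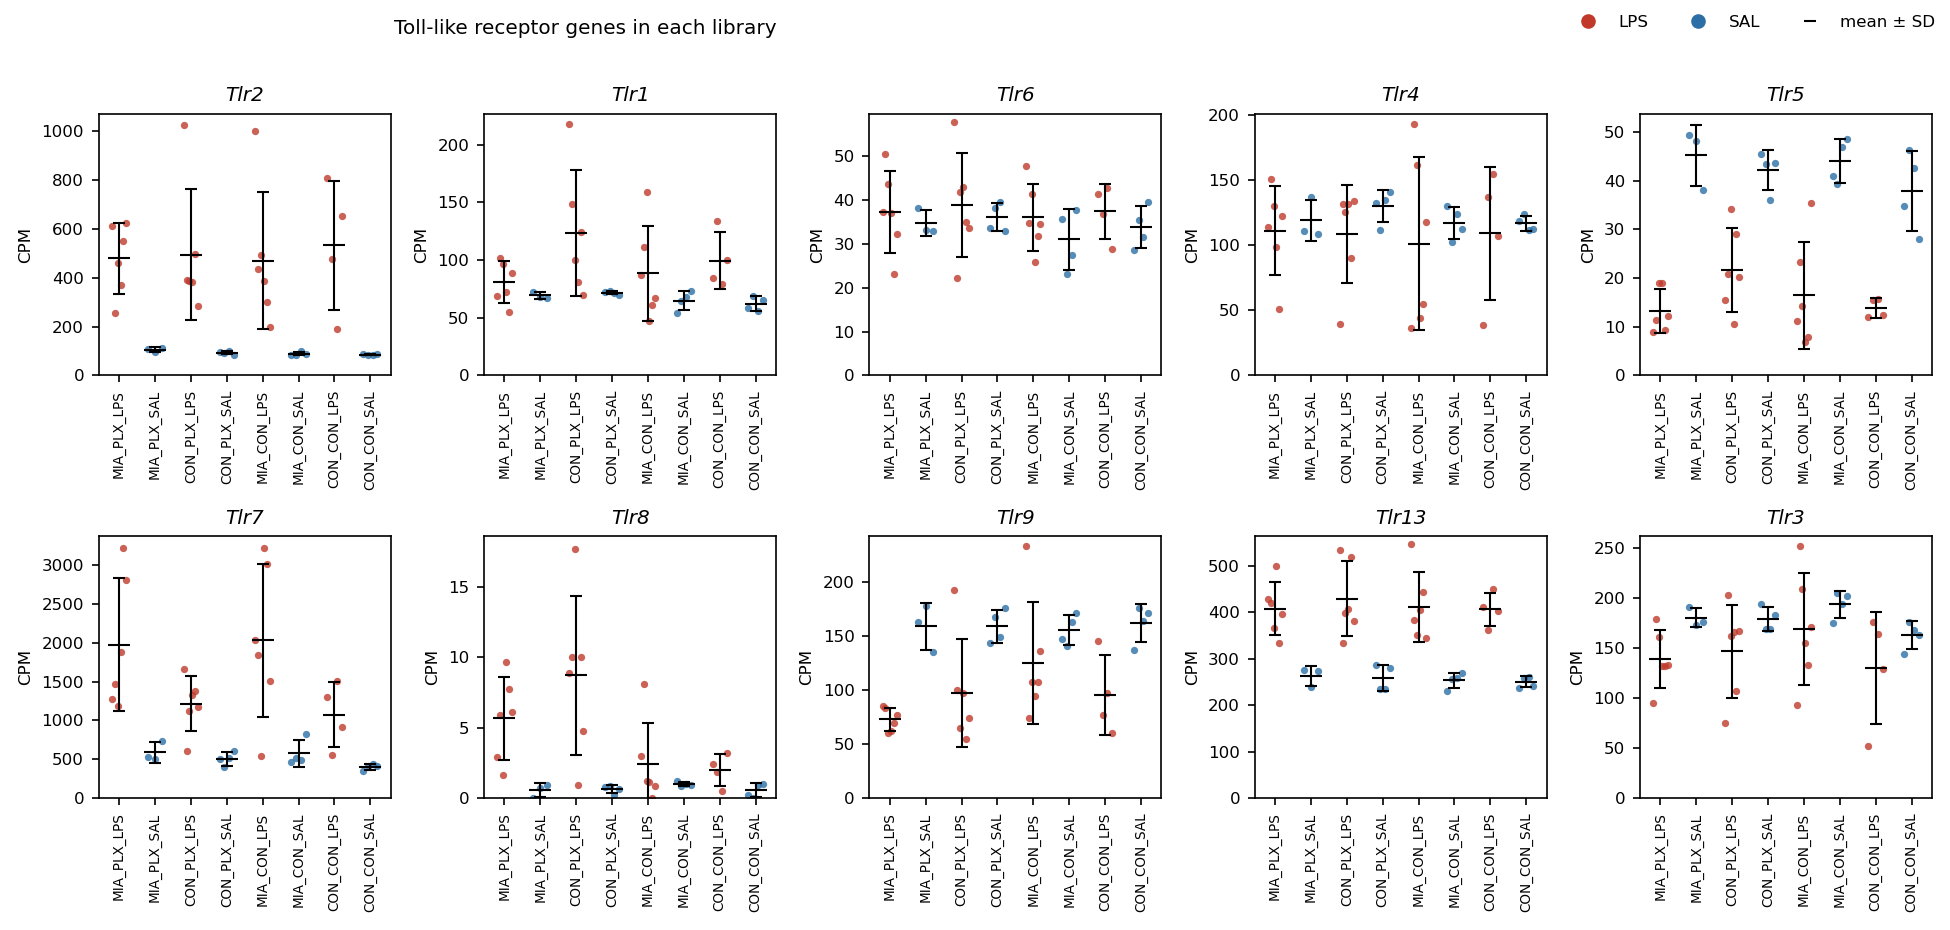
TMM-scaled CPM of each Toll-like receptor gene in each of the 37 libraries (points), with the mean and SD of each group (3 to 6 libraries), LPS in red and SAL in blue. LPS points spread more widely in CPM than SAL points in most panels, for Tlr2 from 190 to 1023 CPM, while Tlr5 in CON:CON and MIA:PLX and Tlr9 in MIA:PLX show the opposite. Spread was not set against the mean.

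Tlr7 was the most abundant gene and rose in all 4 arms. In MIA:PLX it ran from 1192 to 3225 CPM with a median of 1676 after LPS, and was 524, 502 and 736 CPM after SAL. In CON:PLX it ran from 602 to 1662 CPM with a median of 1253 after LPS, and was 498, 394, 511 and 603 CPM after SAL. The injections were apart in MIA:PLX and touched in CON:PLX, at LPS replicate 2. In MIA:CON it ran from 546 to 3227 CPM with a median of 1942 after LPS, and was 462, 516, 495 and 829.2 CPM after SAL. In CON:CON it was 1299, 559, 1511 and 920 CPM after LPS, and 346, 408, 444 and 413 CPM after SAL. In MIA:CON 1 low LPS library (replicate 3) lay under 1 high SAL library (replicate 4), and CON:CON showed no overlap. On the log2 scale the change was 1.75 ± 0.39 in MIA:PLX and 1.27 ± 0.34 in CON:PLX (edgeR adjusted p = 0.00123 and 0.00436). It was 1.82 ± 0.35 in MIA:CON and 1.41 ± 0.37 in CON:CON (edgeR adjusted p = 0.000301 and 0.00470).

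Tlr13, a receptor for bacterial ribosomal RNA in the mouse, had the smallest and most even change of the genes called in every arm. In MIA:PLX it ran from 334 to 499 CPM with a median of 408 after LPS, and was 276, 238 and 274 CPM after SAL. In CON:CON it was 411, 361, 449 and 403 CPM after LPS, and 237, 259, 261 and 242 CPM after SAL. The LPS and SAL libraries were apart in all 4 arms. The log2 fold change was 0.63 ± 0.16 in MIA:PLX, 0.73 ± 0.14 in CON:PLX, 0.70 ± 0.14 in MIA:CON and 0.70 ± 0.16 in CON:CON (edgeR adjusted p = 0.00347, 0.000169, 0.000530 and 0.00107).

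Tlr9, the endosomal receptor for unmethylated CpG DNA, fell in both PLX arms. In MIA:PLX it ran from 59.9 to 85.7 CPM with a median of 73.1 after LPS, and was 163, 178 and 135 CPM after SAL. In CON:PLX it ran from 54.4 to 193 CPM with a median of 86.1 after LPS, and was 143, 168, 150 and 176 CPM after SAL. All LPS libraries were lower in MIA:PLX, and in CON:PLX all but replicate 1, which was above every SAL library. In CON:CON it was 146, 77.1, 97.4 and 60.7 CPM after LPS and 137, 176, 164 and 172 CPM after SAL. The log2 fold change was -1.13 ± 0.28 in MIA:PLX and -0.70 ± 0.26 in CON:PLX (edgeR adjusted p = 0.00331 and 0.0354). It was -0.32 ± 0.26 in MIA:CON and -0.77 ± 0.29 in CON:CON, not called in either (edgeR adjusted p = 0.394 and 0.05003). The call in CON:PLX was lost without any 1 of LPS replicates 2, 3, 5 and 6 or SAL replicates 2, 3 and 4. CON:CON was called without LPS replicate 1, its highest LPS library (-1.05, edgeR adjusted p = 0.0134). The ratio of Tlr7 to Tlr9, in CPM per kb, was 23.6 ± 10.5 after LPS and 3.25 ± 1.21 after SAL in MIA:PLX (SD, n = 6 and 3). In CON:CON it was 9.98 ± 3.62 after LPS and 2.12 ± 0.14 after SAL (n = 4 each). Of the 10 listed markers of B cells and plasmacytoid dendritic cells, which also carry TLR9, 6 were tested, 5 fell and 1 rose in the change averaged over the arms, where 26% of all genes fell. Among them Siglech, which microglia express too, ran from 148 to 761 CPM (median 242) in LPS libraries and from 875 to 1163 CPM (median 979) in SAL libraries. Ms4a1 was at 0 in 21 of 22 LPS libraries and 14 of 15 SAL libraries. Their part in the level of Tlr9 was not tested.

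Tlr8, whose human protein senses RNA fragments, was close to the lower limit of these libraries. In MIA:PLX the LPS libraries had 8, 17, 5, 28, 15 and 8 counts and the SAL libraries 0, 2 and 3 counts. In CON:PLX the LPS libraries had 47, 38, 60, 5, 30 and 14 counts and the SAL libraries 4, 4, 1 and 2 counts. In CPM the injections were apart in both PLX arms. In MIA:CON the LPS libraries had 5, 29, 3, 3, 0 and 3 counts and the SAL libraries 5, 2, 3 and 3 counts. In CON:CON the LPS libraries had 9, 8, 2 and 10 counts and the SAL libraries 1, 0, 3 and 4 counts. In both arms without PLX the groups overlapped. Log2 fold changes were 3.32 ± 0.95 in MIA:PLX and 3.68 ± 0.78 in CON:PLX (edgeR adjusted p = 0.0103 and 0.000364), with 1.27 ± 0.79 in MIA:CON and 1.77 ± 0.90 in CON:CON (edgeR adjusted p = 0.242 and 0.155). The call in MIA:PLX was lost without SAL replicate 2, the library with 0 counts (2.69, edgeR adjusted p = 0.0771).

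Monocyte markers were also higher after LPS. The 6 listed summed to 109 to 301 CPM after LPS and 8.10 to 10.9 CPM after SAL in MIA:PLX, and to 40.8 to 631 CPM after LPS and 8.76 to 17.2 CPM after SAL in CON:PLX. They summed to 10.6 to 159 CPM after LPS and 2.62 to 10.9 CPM after SAL in MIA:CON, and to 18.4 to 147 CPM after LPS and 4.98 to 8.56 CPM after SAL in CON:CON. Averaged over the arms, 4 of the 5 tested rose and 1 fell, and of the neutrophil markers all 5 tested (of 7 listed) rose, where 30.3% of all genes rose and 26% fell. The summed neutrophil markers had medians of 0 to 5.03 CPM in the SAL groups, so those tested could pass the low-count filter largely through LPS libraries. Their calls as higher are therefore not independent of the filter, and the same holds for any monocyte marker at 0 after SAL. Of the border macrophage markers, 2 of the 5 tested rose and 0 fell. The neutrophil markers summed to 2.77 to 95.9 CPM after LPS and 0.356 to 6.23 CPM after SAL in MIA:PLX. In CON:PLX they summed to 27.0 to 41.5 CPM after LPS and 0 to 71.3 CPM after SAL. The 71.3 CPM was that of SAL replicate 2 alone, and the other SAL libraries of CON:PLX had at most 3.23 CPM. The injections overlapped in these arms and were apart in MIA:CON and CON:CON. Ly6c2 was at 0 in the SAL libraries of MIA:PLX, MIA:CON and CON:CON. The part of these cell types in the level of Tlr8 was not tested.

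Tlr3, the endosomal receptor for viral RNA duplexes, averaged 138 ± 29.0 CPM after LPS and 180 ± 9.57 CPM after SAL in MIA:PLX (SD, n = 6 and 3). The injections overlapped in every arm and no arm was called, with log2 fold changes of -0.38 ± 0.27 in MIA:PLX, -0.29 ± 0.25 in CON:PLX, -0.20 ± 0.25 in MIA:CON and -0.32 ± 0.27 in CON:CON. Averaged over the arms it fell by 0.30 on the log2 scale (SE 0.13, edgeR adjusted p = 0.0488), a call that was lost in 27 of the other settings tried, most of which left out a single library (edgeR adjusted p = 0.0509 to 0.116).

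The SD of CPM was larger among LPS than among SAL libraries in 37 of the 40 pairs of a gene and an arm, all but Tlr5 in MIA:PLX and CON:CON and Tlr9 in MIA:PLX. These exceptions are genes that fell in those arms. The SD was not set against the mean, so this count does not separate spread from level. No such count over all genes is given, and the 40 pairs share libraries, so it is not shown to be particular to these genes. Some LPS libraries stood apart for several genes at once. Replicate 1 of CON:PLX, MIA:CON and CON:CON had the highest Tlr2 of its group (1023, 1002 and 808 CPM) and the highest Tlr9 (193, 233 and 146 CPM). The same 3 libraries had the lowest Tlr4 of their groups (39.3, 36.6 and 38.4 CPM) and the lowest Tlr3 (75.2, 92.7 and 52.0 CPM). In 3 other LPS libraries, replicate 2 of CON:PLX, replicate 3 of MIA:CON and replicate 2 of CON:CON, Tlr7 was lowest in the group (602, 546 and 559 CPM). Tlr1 in those was 148, 159 and 134 CPM, the highest of the group in MIA:CON and CON:CON. Replicate 2 of MIA:PLX and replicate 4 of CON:CON had the lowest Tlr2 of their groups (256 and 190 CPM) and the lowest Tnf, a cytokine gene that LPS is known to raise (41.5 and 33.6 CPM, where the other libraries of these groups had 350 CPM or more). They also had the lowest summed level of 9 dissociation stress genes, 1320 and 1383 CPM, and the part of that level in the result was not tested.

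**Figure D4:**
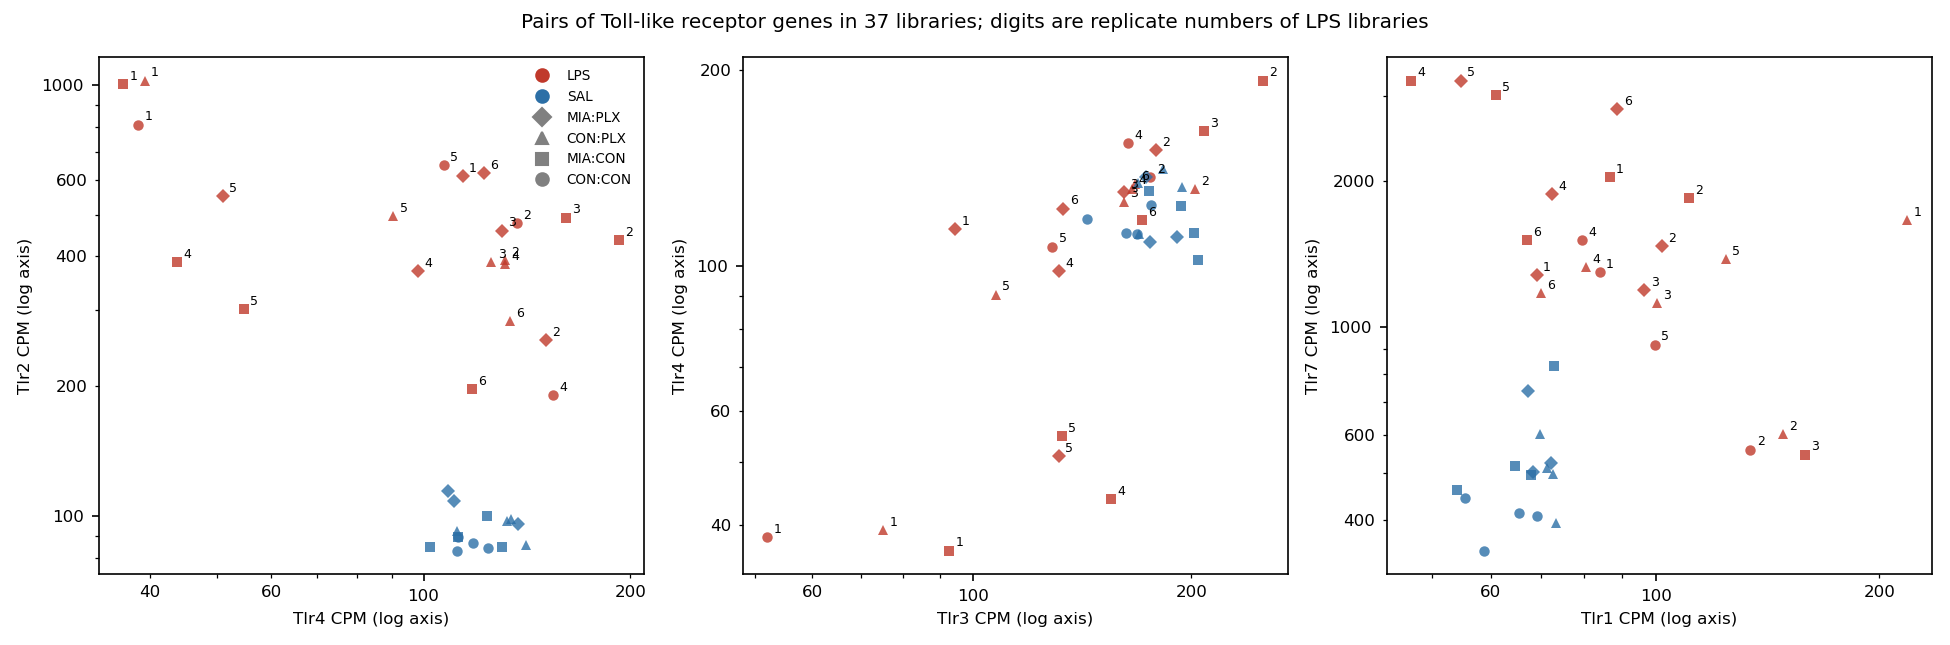
CPM of Tlr2 against Tlr4, Tlr4 against Tlr3, and Tlr7 against Tlr1 in the 37 libraries on log axes, LPS in red with replicate numbers and SAL in blue, with a symbol for each arm. The 3 libraries numbered 1 at the upper left of the first panel have 808 to 1023 CPM of Tlr2 at 36.6 to 39.3 CPM of Tlr4, and the SAL libraries form a single cluster.

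Leaving out those 3 replicate 1 libraries together, a choice made after seeing the data, gave 6 calls in CON:PLX, 5 in MIA:CON and 6 in CON:CON, where 31.2%, 25% and 21.7% of all genes were called in the same fit. Tlr9 was then called lower in MIA:CON (-0.58, edgeR adjusted p = 0.0116) and CON:CON (-1.05, edgeR adjusted p = 0.000249) as well, and its change in CON:PLX was -1.02. These libraries had been noted for the highest Tlr9 and the lowest Tlr3 of their groups. Leaving them out therefore had to lower Tlr9 and raise Tlr3 after LPS, and these calls are no support for a fall of Tlr9. Tlr1 was then called in CON:CON (0.75, edgeR adjusted p = 0.0450) and not in CON:PLX (0.54, edgeR adjusted p = 0.0845). Tlr3 averaged over the arms was -0.16 and no longer called (edgeR adjusted p = 0.116). Tlr2, Tlr7, Tlr13 and Tlr5 were called in all 3 of these arms with and without the 3 libraries. Leaving out the 3 libraries with low Tlr7 instead (replicate 2 of CON:PLX, 3 of MIA:CON and 2 of CON:CON), also chosen after seeing the data, gave 6 calls in CON:PLX, 4 in MIA:CON and 4 in CON:CON (31.6%, 27.1% and 23.3% of all genes). Tlr9 was then at -0.71 in CON:PLX and no longer called (edgeR adjusted p = 0.0537), at -0.26 in MIA:CON and at -0.67 in CON:CON (edgeR adjusted p = 0.533 and 0.138). Leaving out the pair of libraries with low Tnf (replicate 2 of MIA:PLX and 4 of CON:CON), chosen in the same way, gave 6 calls in MIA:PLX and 4 in CON:CON (23.9% and 24.4% of all genes), and no gene gained or lost a call there.

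Prenatal MIA was compared with prenatal CON within each injection and arm term. No Toll-like receptor gene was called in any of the 4 comparisons by edgeR, DESeq2 or limma voom. Of all genes tested, 0.0149% were called with PLX after LPS and 0% in the other 3. The share of all genes at an unadjusted p under 0.05 is not given, so family counts at that threshold have no background. They were 3 of the 10 with PLX after LPS, 1 without PLX after LPS and 0 after SAL. Tlr7 was the only gene among these in both comparisons after LPS. With PLX it averaged 1978 ± 851 CPM in MIA and 1212 ± 354 CPM in CON libraries after LPS (SD, n = 6 each), a log2 difference of 0.71 ± 0.30 (95% interval 0.13 to 1.29, edgeR adjusted p = 0.501). Without PLX it averaged 2030 ± 990 CPM in MIA and 1072 ± 421 CPM in CON libraries after LPS (n = 6 and 4), a difference of 0.92 ± 0.34 (95% interval 0.26 to 1.59, edgeR adjusted p = 0.422; 0.99 and 0.338 without MIA_CON_LPS replicate 6). After SAL the difference was 0.23 ± 0.39 with PLX and 0.52 ± 0.36 without. The LPS change of Tlr7 itself was 0.48 ± 0.49 larger in MIA with PLX and 0.41 ± 0.49 without (95% intervals -0.48 to 1.44 and -0.56 to 1.37), and neither interaction was called. Tlr1 and Tlr5 were the other genes past the unadjusted threshold with PLX after LPS, at -0.62 ± 0.23 and -0.68 ± 0.29 in MIA over CON. For Tlr2 the MIA by LPS interaction was -0.23 ± 0.50 with PLX and -0.24 ± 0.50 without, with 95% intervals of -1.22 to 0.75 and -1.23 to 0.74.

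PLX was compared with no PLX in the same way, and no Toll-like receptor gene was called in any of the 4 comparisons by edgeR, DESeq2 or limma voom. Of all genes, 0.00745% were called in prenatal CON after LPS and 0% in the other 3. An unadjusted p under 0.05, again without a share over all genes, was reached by 1 gene in each prenatal group after LPS and by 0 after SAL. In prenatal MIA this was Tlr9, at 72.9 ± 10.9 CPM with PLX and 125 ± 56.5 CPM without after LPS (SD, n = 6 each), a log2 difference of -0.78 ± 0.24 (95% interval -1.25 to -0.31, edgeR adjusted p = 0.321). In prenatal CON it was Tlr8, at 8.71 ± 5.64 CPM with PLX and 1.98 ± 1.12 CPM without after LPS (n = 6 and 4), a difference of 2.12 ± 0.68 (95% interval 0.78 to 3.47, edgeR adjusted p = 0.617). The same difference of Tlr8 in prenatal MIA was 1.16 ± 0.61 (95% interval -0.04 to 2.36). After LPS, no CON:CON library had more than 10 counts of Tlr8, while CON:PLX libraries had 5 to 60. Tlr8 therefore passed the low-count filter mainly through PLX libraries after LPS, and its differences between PLX and no PLX are not independent of that filter. The LPS change of Tlr8 differed between PLX and no PLX by 2.05 ± 1.27 in prenatal MIA and 1.92 ± 1.26 in prenatal CON. These intervals ran from -0.43 to 4.53 and from -0.56 to 4.39, so the counts could not tell a PLX effect on the Tlr8 change from none. In each of the 4 interactions 0% of all genes tested were called, and 0 of the 10 by edgeR, DESeq2 or limma voom. At an unadjusted p under 0.05, also without a share over all genes, there was 1 of the 10. It was Tlr9 in the PLX by LPS interaction of prenatal MIA (-0.81 ± 0.39).

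Genes whose products act with Toll-like receptors were taken from lists by role, and are given for the LPS change averaged over the arms, in which 56.4% of all genes were called. Of the 6 co-receptor and lipid handling genes, 4 were tested, 1 rose and 3 fell. Cd14, which hands LPS to the TLR4 complex, rose by 2.47 ± 0.23 (SE, log2), while Ly96, which encodes MD-2, fell by 1.01 (SE 0.22). Cd180 and Ly86, which encode a TLR4-like surface protein and its partner, fell by 1.99 and 0.66 (SE 0.14 and 0.10; all 4 by edgeR, largest adjusted p = 0.000211). Cd14 rose and Cd180 fell in each of the 4 arms, and Ly96 was called in MIA:PLX alone. Of the 9 genes for chaperones and endosomal processing, 3 rose, 2 fell and 4 were not called. The cathepsin genes Ctsl, Ctsb and Ctss, whose proteases cut endosomal receptors, rose by 1.55 ± 0.12, 0.51 ± 0.09 and 0.49 ± 0.08. Ap3b1, of the adaptor complex for endosomal sorting, was at -0.00 ± 0.10.

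Of the 6 adaptor genes, 4 rose, 1 fell and 1 was not called. Tirap, the bridge between TLR2 or TLR4 and MyD88, rose by 0.72 ± 0.11, and Ticam1, the adaptor of TLR3 and of endosomal TLR4, rose by 0.42 ± 0.09. Sarm1, an adaptor family member that cleaves NAD, fell by 1.68 (SE 0.33), and Ticam2 was at 0.07 ± 0.14. The average level of Sarm1 was low (1.41 on the log2 CPM scale), so its fall may not be independent of the low-count filter. Of the 13 kinase and ligase genes, 4 rose, 3 fell and 6 were not called. Irak1 and Tbk1 rose by 0.63 ± 0.09 and 0.65 ± 0.13, Traf3 fell by 0.41 (SE 0.15), and Tab1 was at -0.10 ± 0.19.

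Of the 7 negative regulators, 6 were tested and 3 rose. Irak3, an inactive kinase that blocks the receptor complex, rose by 2.60 ± 0.41, and Tnfaip3, the ubiquitin-editing enzyme A20, rose by 1.94 ± 0.31. Tollip rose by 0.40 ± 0.11 and Socs1 was at -0.29 ± 0.41. Of the 6 transcription factors 2 rose: Irf7 by 3.42 ± 0.22 and Rela by 0.58 ± 0.12, with Irf5 at -0.24 ± 0.11 and Nfkb1 at -0.07 ± 0.12. Among the other Toll-like receptor genes, Tlr12, a receptor for protozoan profilin in the mouse, fell by 1.79 (SE 0.27, edgeR adjusted p = 6.3e-07) and was called in all 4 arms. In MIA:PLX it averaged 3.26 ± 1.79 CPM after LPS and 19.3 ± 1.93 CPM after SAL (SD, n = 6 and 3). Tlr11 had 0 to 17 counts per library and was not tested. The median log2 fold change was -0.83 for the co-receptors, 0.05 for chaperones and processing, 0.49 for adaptors, 0.15 for kinases and ligases, 0.15 for negative regulators and 0.02 for transcription factors, beside 0.03 over all genes tested.

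**Figure D5:**
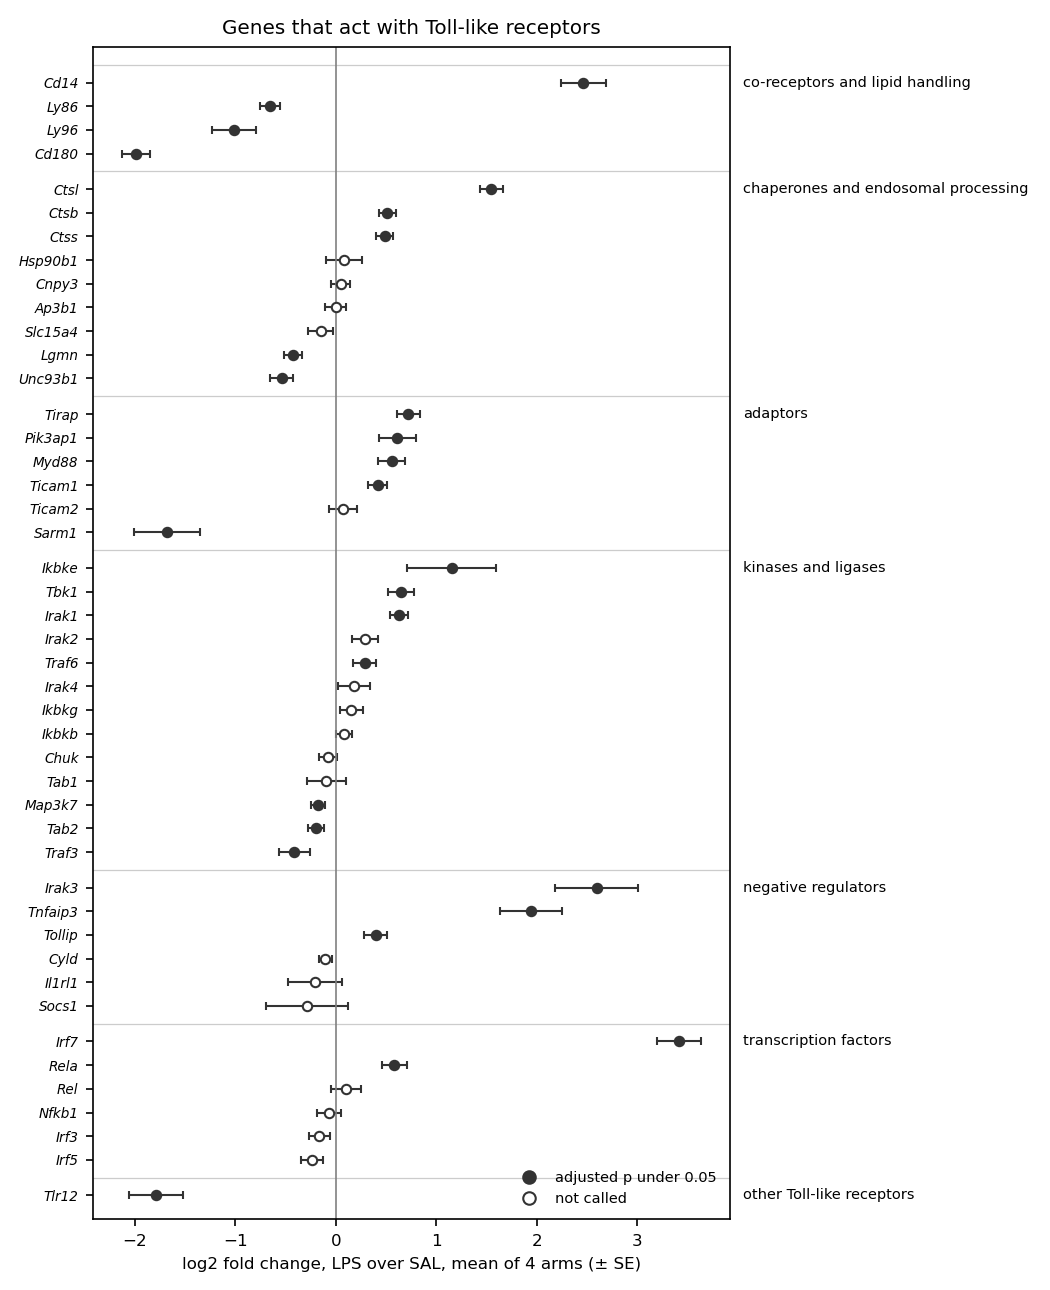
Log2 fold change, LPS over SAL, averaged over the 4 arms (± SE) for the genes that act with Toll-like receptors, by role, with filled points at an adjusted p under 0.05 by edgeR. Irf7 (3.42), Irak3 (2.60) and Cd14 (2.47) lie farthest to the right, and Cd180 (-1.99) and Tlr12 (-1.79) farthest to the left.

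The genes most like each family member were those with the highest Pearson correlation of log2 CPM over the 37 libraries, which share the LPS and SAL difference and each library's depth. Fth1 was nearest to Tlr2 (r = 0.98), followed by Mfsd1 and Pfkfb3 (0.96 each). Tmem189 was nearest to Tlr7 (0.94), then Vapa (0.91), and Fmnl2 to Tlr13 (0.94), then Tor1aip2 and Tigd2 (0.93 each). Arhgap5 was nearest to Tlr5 (0.92), Ppm1l to Tlr9 (0.88), Mettl8 to Tlr4 (0.92) and Ntpcr to Tlr3 (0.87). B4galt5 was nearest to Tlr1 (0.83), Cd38 to Tlr8 (0.84, then Clec4d at 0.82 and Fpr2 at 0.79) and Msmo1 to Tlr6 (0.75), which had the lowest such value of the 10.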

How the data were processed

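The authors deposited 1 table of estimated counts, of 55487 identifiers by 39 libraries, in which 14.71% of nonzero values have a fraction. Per the submitters' processing notes the tools were STAR, RSEM and DESeq2, and their versions and roles are missing there. Which genome build and annotation were used is not given in the sources used here. Cells were sorted and RNA amplified linearly without strand information, per the labels' protocols. All columns matched a library, and 54349 identifiers matched GENCODE M21 with their version, 55141 in all.

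Estimated counts were rounded to whole numbers. The 2 libraries with a title that says exclude were left out. Genes were kept by filterByExpr (minimum count 10, minimum total 15), which left 13420 and removed 15530 with a count. One mean per group was fitted to 37 libraries with edgeR 4.0.16 quasi-likelihood, robust, with TMM normalization (factors 0.797 to 1.33) in R 4.3.3, and tested two-sided. Benjamini-Hochberg adjustment ran over the 13420 genes, and the threshold was 0.05. SE is the log2 fold change divided by the square root of F. CPM is TMM-scaled, and CPM per kb divides by the union of GENCODE M21 exons. Interaction contrasts are differences of LPS changes. The steps were tested on simulated data.

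Alternatives were RLE factors, DESeq2 1.42.0, limma 3.58.1 voom, no filter, a filter of 1 CPM, only the groups compared, both excluded libraries included, the replicate number as a block, and each library left out. Another 3, which leave out sets of libraries that stood apart, were chosen after seeing the data. Replicate numbers occur in every group, but nothing says what a number shares. Deviations of same-numbered libraries correlated above 0.1 for every pair in 1 comparison only, PLX against no PLX in prenatal CON after LPS (4 pairs, r from 0.17 to 0.66), where the numbers were taken to pair the libraries.

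All 10 members were tested in all contrasts, and not every value is printed. Of each pathway list, up to 3 genes with the smallest p and the 1 with the largest p in the averaged LPS contrast were named. For each member the 3 most correlated genes were taken, leaving out symbols of the Gm and Rik kind, and for most members only the nearest is printed. One of these correlated genes is not reported here. The members and lists were chosen with earlier results of these data known.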

Additional observations from a re-analysis of the deposited data

Results flagged for a closer look

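Of 70 sets of values, each 1 gene in 1 group of 4 or more libraries, 5 held a library far from the others, where chance gives about 1 in 20. Tlr2 stood at 1002 CPM in MIA_CON_LPS replicate 1 (the others 197 to 492 CPM) and at 1023 CPM in CON_PLX_LPS replicate 1 (the others 283 to 495 CPM). Tlr9 stood at 193 CPM in that same CON_PLX_LPS library, where the others had 54.4 to 100 CPM. Tlr7 stood at 829.2 CPM in MIA_CON_SAL replicate 4 (the others 462 to 516 CPM). Tlr8 stood at 8.12 CPM in MIA_CON_LPS replicate 2 (the others 0 to 2.95 CPM).

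MIA_PLX_SAL replicate 1, whose title says exclude, is outside the comparisons and was above the used SAL libraries of its group for 5 genes. The CPM values that follow were scaled with all 39 libraries together, so those of used libraries differ slightly from the ones above. It had 188 CPM of Tlr2 (used libraries 95.4 to 114), 1363 CPM of Tlr7 (500 to 734), 319 CPM of Tlr13 (237 to 275), 38.6 CPM of Tlr6 (32.9 to 38.1) and 1.40 CPM of Tlr8 (0 to 0.931). It was below them for Tlr1, at 60.4 CPM (67.0 to 72.0), and Tlr3, at 163 CPM (173 to 190). The other library marked exclude, CON_CON_LPS replicate 3, was outside the used LPS libraries of its group for 5 genes. It had 72.0 CPM of Tlr2 (used libraries 189 to 805), 43.6 CPM of Tlr5 (11.9 to 15.7), 311 CPM of Tlr13 (359 to 447), 62.1 CPM of Tlr1 (79.1 to 133) and 23.2 CPM of Tlr6 (28.7 to 42.6).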

How the results depend on the processing

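No Toll-like receptor gene changed direction in a way that counted as reversed in any setting, and every count of called genes stayed within 1.5 times the reported one. Leaving out each library in turn gave 5 to 6 calls in MIA:PLX, 6 to 7 in CON:PLX, 4 in MIA:CON, 4 to 5 in CON:CON and 7 to 8 averaged over the arms. Totals over all genes are not given for those fits. The other settings gave 5 to 6, 6 to 7, 4 to 5, 3 to 6 and 7 to 8. Over all genes these other settings called 2276 to 3213, 3581 to 4684, 2225 to 3854, 2133 to 3437 and 7210 to 8353. The number of genes tested differed between settings. All settings gave 0 for the MIA, PLX and interaction comparisons. Tlr9 in CON:PLX lost its call in 10 settings (-0.73 to -0.59) and in CON:CON gained one in 7 (-1.05 to -0.78). Tlr8 in MIA:PLX lost its call under limma voom (3.30, adjusted p = 0.0824). With the replicate number as a block, 6 genes were called in CON:CON, beside 3096 over all genes. Tlr1 (0.76) and Tlr9 (-0.78) gained a call in that arm. Deviations of same-numbered libraries did not correlate there (3 pairs, r from -0.05 to 0.03), and whether the numbers pair those libraries is not known. Where the numbers were taken to pair the libraries, from their correlations alone (PLX against no PLX in prenatal CON after LPS), the block changed no call and gave 0 genes. Tlr8 could not be fitted from only the groups compared in 9 comparisons, since its counts fell under the filter. Over all genes, only the groups compared gave 2225 calls in MIA:CON, against 3403 in the reported fit. The causes were not tested. At 0 to 60 counts per library, depth limits what Tlr8 can show.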
